A study of Mus musculus with 8 samples.

Results

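The genes described here are the 5 that carry out ISG15 conjugation in the mouse: Isg15 (the modifier), Uba7 (the E1), Ube2l6 (the E2), Herc6 (the E3) and Usp18 (the deconjugase). They were chosen by their symbol in the authors' normalized table and joined by Ensembl identifier to the count table, where they are 5 of 55536 counted genes. All 5 were found, and all 5 had enough counts to be tested. RNA was sequenced from 8 whole HCA-1 tumors, 4 of mice given saline (control, replicates 1, 3, 4 and 5) and 4 of mice given a single intravenous dose of PFSUV-IMQ (replicates 1, 2, 3 and 4). PFSUV-IMQ is imiquimod, an agonist of the RNA sensor TLR7, carried in phospholipid-free small unilamellar vesicles. HCA-1 is a mouse hepatocellular carcinoma line that was implanted under the capsule of the liver of male C3H mice, which the labels put at 6 to 8 weeks of age and the study's methods at a younger range. Dosing was on day 17 after implantation and tumors were taken 3 h later. All tumors came from the same line, no group given empty vesicles or free imiquimod was analysed here, and the labels number the tumors without naming the animal, so p values measure the spread between these tumors.

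ISG15 is a small protein made of ubiquitin-like domains that cells produce in response to type I interferon. It is attached to target proteins by a cascade like that of ubiquitin: Uba7 activates the modifier, Ube2l6 receives it, and a HECT-type ligase, Herc6 in the mouse, transfers it to the target. Usp18 cleaves ISG15 from its targets and, apart from this protease activity, binds the interferon receptor chain Ifnar2 and dampens further interferon signaling. In liver and liver tumors these genes are known as interferon-stimulated genes, and free ISG15 can also be secreted.

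Total counts per tumor were 16883911 to 27687756 in the control group and 17008151 to 18527613 in the PFSUV-IMQ group, and 3 counts corresponded to 0.105 to 0.210 CPM, the TMM-normalized measure of edgeR that gives each gene's reads relative to the library total. The epithelial keratins Krt8 and Krt18 were high in every tumor (444 to 1256 CPM), whereas the oncofetal liver cancer markers Afp and Gpc3 were at most 6.08 and 1.99 CPM. Summed hepatocyte and tumor markers ranged widely in both groups, from 6780 to 35430 CPM in control tumors and from 9084 to 38368 CPM in PFSUV-IMQ tumors. Of 57 tested marker genes in 10 cell type lists, 1 was called, Bst2 (higher), which is itself interferon-induced. That is near the share of all tested genes (2.26% higher and 0.200% lower), so this count does not show equal cell content. With none called, all 5 tested neutrophil markers were higher (median log2 fold change 1.16) and all 5 endothelial markers lower (median -0.26). PFSUV-IMQ replicate 2 stood highest of its group in 8 of these 10 summed marker lists. Since whole tumors were sequenced, a change in the number of cells of a type and a change of RNA per cell cannot be told apart.

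All 5 genes were higher after PFSUV-IMQ, and the size of the change differed among them. The modifier and the deconjugase rose the most, by 32.6-fold and 28.2-fold, the ligase Herc6 rose 10.5-fold, and Uba7 and Ube2l6 rose 4.88-fold and 3.45-fold (edgeR's quasi-likelihood test, n = 4 tumors each). A gene was called where its Benjamini-Hochberg adjusted p was under 0.05 and its log2 fold change was over 1 in size. Each of the 5 was called higher, compared with 362 of all 15998 tested genes (2.26%). In each of the 5, every PFSUV-IMQ tumor lay above every control tumor, which held for 960 of the tested genes (6.00%). The total of 362 fell to 197 without control replicate 1, to 212 without control replicate 3 and to 233 without control replicate 4, and all 5 genes were called in each of those fits.

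**Figure D1:**
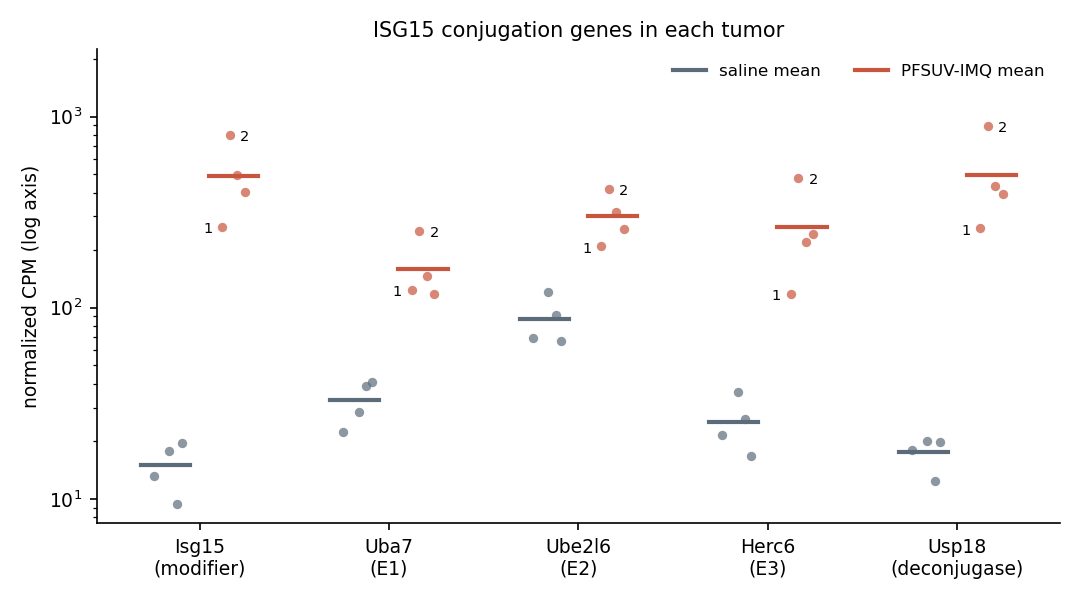
Normalized CPM (log axis) of the 5 genes in each tumor, with saline tumors in grey, PFSUV-IMQ tumors in red, horizontal lines at the group means and PFSUV-IMQ replicates 1 and 2 numbered. The groups do not overlap for any gene, and replicate 2 is the highest PFSUV-IMQ tumor in all 5.

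Isg15 (ENSMUSG00000035692, protein coding, chromosome 4, 156199424 to 156200818 of GRCm38, minus strand) encodes the modifier and has 2 exons. Its normalized level was 13.2, 17.8, 9.36 and 19.7 CPM in control replicates 1, 3, 4 and 5, and 264, 801, 493 and 401 CPM in PFSUV-IMQ replicates 1, 2, 3 and 4. Control replicate 4 was the lowest of all tumors, and the lowest PFSUV-IMQ tumor was still 13.4-fold above the highest control. The log2 fold change was 5.03 (standard error, SE, 0.41, edgeR quasi-likelihood adjusted p = 5.5e-04), which placed Isg15 18th of 15998 tested genes by size of increase.

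The sequence before the Isg15 start is shown because it holds the interferon-response letters searched for here. The windows are those of RefSeq on GRCm38.p6, from 250 bases before to 50 bases after each gene's start, and they come from the C57BL/6J reference, not from C3H. The search used the core of the interferon-stimulated response element (ISRE), which is GAAA, any 2 bases and GAAA, the core of the gamma-activated site (GAS), TTCNNNGAA, and the shorter core bound by interferon regulatory factors (IRF), AANNGAAA, each on both strands, and the ISRE and IRF cores overlap in their letters. The IRF core was added after the sequences had been seen. Capitals mark every match to the ISRE or IRF core in the 250 bases up to the Isg15 start (chr4:156200819-156201068, minus strand, written 5′ to 3′ in the direction of the gene).
Isg15: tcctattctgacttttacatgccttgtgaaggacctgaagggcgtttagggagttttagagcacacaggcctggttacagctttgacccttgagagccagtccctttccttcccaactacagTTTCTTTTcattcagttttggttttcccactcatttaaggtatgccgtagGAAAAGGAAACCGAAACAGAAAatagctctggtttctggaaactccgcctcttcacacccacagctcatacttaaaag
The longer capital run holds 3 overlapping ISRE cores, which begin 78, 72 and 66 bases before the start, and the shorter run is an IRF core on the opposite strand that begins 128 bases before it. An ISRE core occurred in 3.44% of 32851 RefSeq windows, an IRF core in 23.9% and a GAS core in 8.30%.

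Uba7 (ENSMUSG00000032596, chromosome 9, 107975505 to 107984060, plus strand) encodes the E1, which uses ATP to activate ISG15. Its level was 22.3, 28.5, 39.0 and 41.0 CPM in control replicates 1, 3, 4 and 5, and 123, 252, 146 and 118 CPM in PFSUV-IMQ replicates 1, 2, 3 and 4. Here PFSUV-IMQ replicate 4, not replicate 1, was the lowest of its group, and replicate 2 stood above the other 3, which lay close together. The log2 fold change was 2.29 (SE 0.30, quasi-likelihood adjusted p = 0.00411). The RefSeq window of Uba7 held no ISRE or GAS core and 1 IRF core, on the opposite strand (TTTCACTT, chr9:107975540-107975547), which begins 27 bases before the RefSeq start and lies in an annotated GENCODE exon.

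Ube2l6 (ENSMUSG00000027078, chromosome 2, 84798828 to 84810335, plus strand) encodes the E2 that carries ISG15 to the ligase. It was at 69.6, 120.3, 91.0 and 66.8 CPM in control replicates 1, 3, 4 and 5, and at 209, 418, 316 and 258 CPM in PFSUV-IMQ replicates 1, 2, 3 and 4. Control replicate 3 was the highest control tumor, and the margin between groups was the narrowest of the 5, with the lowest PFSUV-IMQ tumor 1.74-fold above the highest control. The log2 fold change was 1.79 (SE 0.27, quasi-likelihood adjusted p = 0.00873), and against a minimum log2 fold change of 1 (edgeR's glmTreat) Ube2l6 was not called (adjusted p = 0.151), while the other 4 were, beside 119 of all tested genes (0.744%). Its upstream sequence is shown beside that of Isg15 because the 2 genes are the ends of the range of change. Of the 4 genes with a RefSeq window, 1 held an ISRE core, and whether the motifs bear on the size of the change was not tested. No match to any of the 3 motifs occurred in the Ube2l6 window, and the 250 bases up to the Ube2l6 start are chr2:84798578-84798827 (plus strand).
Ube2l6: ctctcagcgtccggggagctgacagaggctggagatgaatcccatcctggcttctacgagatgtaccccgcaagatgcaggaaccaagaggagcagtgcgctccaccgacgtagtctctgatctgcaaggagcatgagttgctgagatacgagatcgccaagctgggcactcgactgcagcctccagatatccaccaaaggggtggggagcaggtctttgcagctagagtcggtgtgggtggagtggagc

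Herc6 (ENSMUSG00000029798, chromosome 6, 57581000 to 57664632, plus strand) encodes the ligase, with an RCC1-like domain and a HECT domain. Control replicates 1, 3, 4 and 5 had 21.5, 36.4, 26.2 and 16.7 CPM, and PFSUV-IMQ replicates 1, 2, 3 and 4 had 118, 479, 219.7 and 243 CPM. The PFSUV-IMQ tumors spread further for Herc6 than for any other of the 5 genes, with replicate 2 at 4.06 times replicate 1. The log2 fold change was 3.39 (SE 0.44, quasi-likelihood adjusted p = 0.00354). The RefSeq window of Herc6 held none of the 3 motifs. Another annotated gene, Gm45193, overlaps 13.7% of the Herc6 exon bases on the same strand and had 0 counts in all 8 tumors.

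Usp18 (ENSMUSG00000030107, chromosome 6, 121245906 to 121270917, plus strand) encodes the protease that removes ISG15. Its level was 17.9, 20.2, 12.5 and 19.9 CPM in control replicates 1, 3, 4 and 5, and 259.8, 895, 435 and 395 CPM in PFSUV-IMQ replicates 1, 2, 3 and 4. The order of the PFSUV-IMQ tumors was that of Isg15, and control replicate 4 was again the lowest. The log2 fold change was 4.82 (SE 0.41, quasi-likelihood adjusted p = 5.9e-04). No RefSeq window was matched for Usp18, so the sequence before its start was not searched for motifs. Gm44148, on the opposite strand, overlaps 4.44% of the Usp18 exon bases and had at most 16 counts per tumor, against 290 to 12815 for Usp18.

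The 5 genes shared their highest tumor in the treated group and not in the control group. PFSUV-IMQ replicate 2 was the highest of its group in all 5 genes and replicate 1 the lowest in 4 of 5. Replicate 2 was also the highest of its group in 34.8% of all tested genes and in 88.4% of the 362 called higher, and replicate 1 was the lowest in 27.0% and 65.5% of them. Replicate 2 of the PFSUV-IMQ group also had the highest hepatocyte and tumor marker sum of its group (38368 CPM), but the list was split. Its Alb (22736 CPM), Apoa1, Apoa2, Ttr, Trf, Serpina1a and Fgb were each the highest of its group. Its Krt8 (444 CPM), Krt18 (550 CPM), Afp and Gpc3 were each the lowest of all tumors. The same tumor had the highest share of mitochondrial counts of all tumors (6.65%). The part of marker content and mitochondrial share in its ISG15 gene levels was not tested. Control replicate 4 had a comparable hepatocyte and tumor marker sum (35430 CPM) and the lowest Isg15 and Usp18 of all tumors. As a saline tumor, it cannot show how cell content bears on these levels after PFSUV-IMQ. Without PFSUV-IMQ replicate 2, the log2 fold changes were 4.67 for Isg15, 1.97 for Uba7, 1.57 for Ube2l6, 2.92 for Herc6 and 4.35 for Usp18, and all 5 were called. Among control tumors, replicate 5 was the highest for Isg15 (19.7 CPM) and Uba7 (41.0 CPM) and the lowest for Ube2l6 (66.8 CPM) and Herc6 (16.7 CPM). The coefficient of variation was 20.3% to 33.4% among control tumors and 29.9% (Ube2l6) to 57.6% (Herc6) among PFSUV-IMQ tumors.

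**Figure D2:**
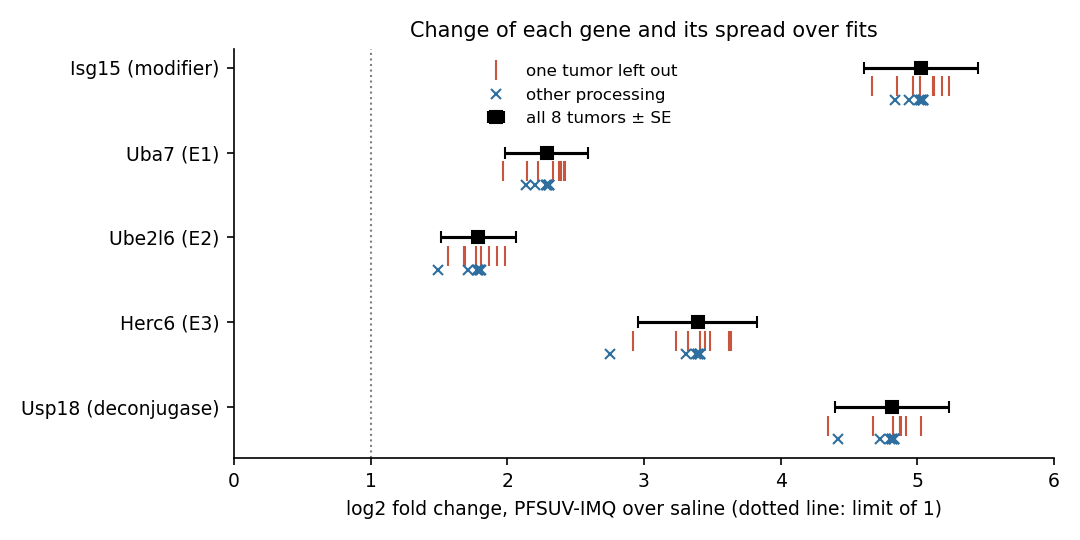
Log2 fold change of PFSUV-IMQ over saline for each gene, with the fit of all 8 tumors and its standard error as black squares, fits that leave out 1 tumor as red ticks and other processing as blue crosses. No fit puts a gene at or below the limit of 1, and the lowest is 1.49 for Ube2l6.

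Whether the modifier and its enzymes changed by the same amount was asked of the log2 ratio of each pair of genes within a tumor, which cancels the scaling of the library apart from the pseudocount of 0.5. There are 10 such pairs, and the exact two-sided permutation test of 4 against 4 tumors cannot give a p below 0.0286. In 7 of the 10 pairs the ratio shifted between groups at this smallest p (adjusted p = 0.0408 over the 10 pairs by exact permutation), with every tumor of one group beyond every tumor of the other. All 7 separated Isg15 or Usp18 from the E1, E2 and E3, or Herc6 from Ube2l6.

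The ratio of Isg15 to Ube2l6 moved the most of the 10. Its log2 values were -2.36, -2.72, -3.21 and -1.74 in control replicates 1, 3, 4 and 5 and 0.33, 0.94, 0.64 and 0.63 in PFSUV-IMQ replicates 1, 2, 3 and 4. The highest control ratio, that of replicate 5, was below the lowest PFSUV-IMQ ratio, that of replicate 1. The difference of the group means was 3.14 on the log2 scale (SE 0.33, 8.85-fold). The shift was 2.68 (SE 0.35) for Isg15 to Uba7 and 1.67 (SE 0.37) for Isg15 to Herc6. With Usp18 in place of Isg15, Ube2l6 to Usp18 moved by -2.88 (SE 0.31), Uba7 to Usp18 by -2.41 (SE 0.34) and Herc6 to Usp18 by -1.40 (SE 0.31). Herc6 also gained on Ube2l6, with Ube2l6 to Herc6 at -1.47 (SE 0.24).

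For 3 pairs the shift did not pass 0.05. The modifier and the deconjugase stayed closest, with a mean log2 ratio of Isg15 to Usp18 of -0.25 ± 0.19 in control and 0.02 ± 0.14 in PFSUV-IMQ tumors (SD, n = 4 each, exact permutation p = 0.0571, adjusted p = 0.0714). Their difference of 0.27 has an exact permutation interval (97.1% coverage) of -0.14 to 0.61, so a relative change larger than that on the log2 scale lies outside it. The difference for Uba7 to Ube2l6 was 0.47 (interval -0.43 to 1.33, exact permutation p = 0.171, adjusted p = 0.171). For Uba7 to Herc6 it was -1.01 (interval -2.31 to 0.41, exact permutation p = 0.0857, adjusted p = 0.0952), an interval wide enough to hold both no shift and one beyond 2 log2 units.

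**Figure D3:**
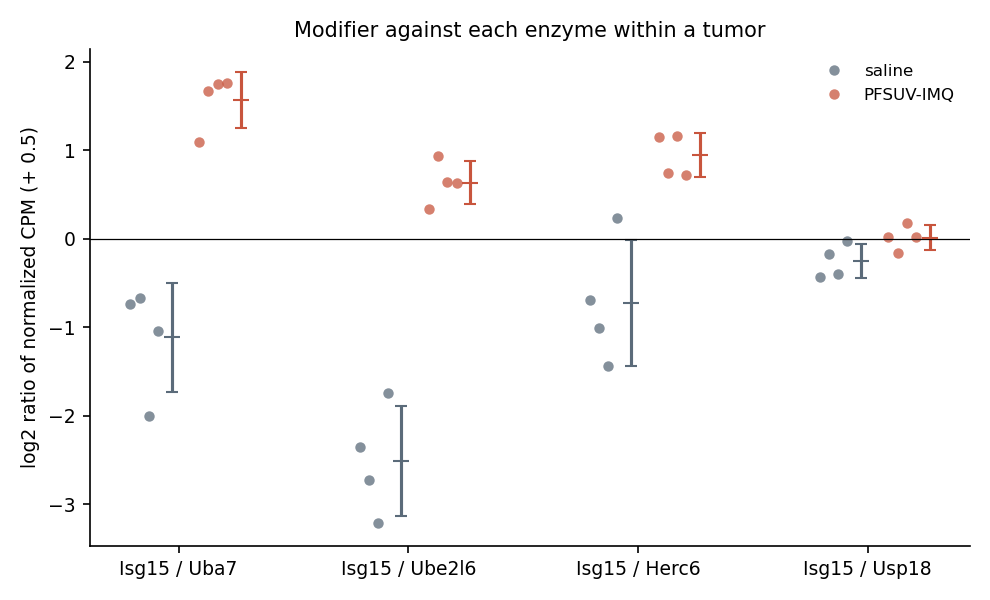
Log2 ratio of normalized CPM of Isg15 to each enzyme in each tumor (points), with the group mean and SD beside them, saline in grey and PFSUV-IMQ in red. The ratios to Uba7, Ube2l6 and Herc6 do not overlap between groups, and the ratio to Usp18 does.

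Levels of different genes can be compared only per length, so normalized CPM were divided by the exon length of each gene in kilobases. In control tumors the E2 was the most abundant, with Ube2l6 at 43.6 ± 12.4 CPM per kilobase, followed by Isg15 at 19.8 ± 6.14, Usp18 at 6.32 ± 1.29, Uba7 at 4.89 ± 1.32 and Herc6 at 2.71 ± 0.905 (SD, n = 4 tumors). The control ranges of Usp18 and Uba7 overlapped, as did those of Uba7 and Herc6, and the other neighbors in this order were separate. In PFSUV-IMQ tumors the modifier came first, with Isg15 at 648 ± 301 CPM per kilobase, followed by Usp18 at 178 ± 99.0, Ube2l6 at 150.4 ± 45.0, Herc6 at 28.5 ± 16.4 and Uba7 at 23.9 ± 9.35 (SD, n = 4 tumors). Usp18 exceeded Ube2l6 in 2 of 4 PFSUV-IMQ tumors and Herc6 exceeded Uba7 in 3 of 4, so neither neighbor pair was separated.

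Per kilobase, the control tumors held 0.485 ± 0.216 Isg15 for each Ube2l6, and the PFSUV-IMQ tumors 4.15 ± 0.707 (SD, n = 4 each). Isg15 for each Usp18 was 3.10 ± 0.437 in control and 3.74 ± 0.360 in PFSUV-IMQ tumors. Usp18 for each Herc6 went from 2.55 ± 1.08 to 6.40 ± 0.794. With the longest annotated transcript as the length, the order of the 5 mean levels was unchanged in both groups, the PFSUV-IMQ ranges of Isg15 and Usp18 overlapped, the levels of Uba7, Herc6 and Usp18 were over 1.5 times those given above, and Usp18 exceeded Ube2l6 in all 4 PFSUV-IMQ tumors.

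**Figure D4:**
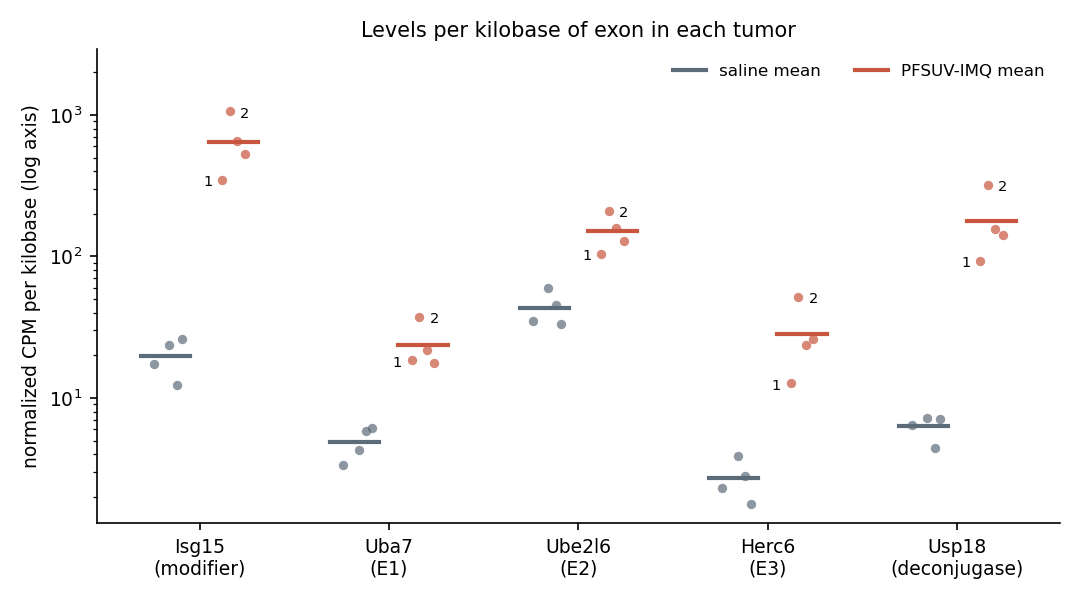
Normalized CPM per kilobase of exon (log axis) for each tumor, with saline in grey, PFSUV-IMQ in red and lines at the group means. Ube2l6 is the highest of the 5 in saline tumors (mean 43.6) and Isg15 in PFSUV-IMQ tumors (mean 648).

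Each enzyme of the pathway belongs to a larger family that serves ubiquitin and other ubiquitin-like proteins, and the relatives were read from the same fit. Of the 9 other E1 enzymes and E1 subunits, none was called, with log2 fold changes from -0.18 (Uba3, the NEDD8 E1) to 0.17 (Uba6) and a median of 0.07. Uba1, the main ubiquitin E1, had 194 ± 31.5 CPM in control and 205 ± 43.8 CPM in PFSUV-IMQ tumors (SD, n = 4 each). Of the 34 other tested E2 enzymes none was called, and all 34 lay within 0.5 of 0 on the log2 scale, with a median of 0.01, beside -0.03 for all tested genes. Ube2l3, the closest relative of Ube2l6 by name, had 134 ± 6.99 and 137 ± 5.39 CPM (SD, n = 4 each), which is 0.02 on the log2 scale (SE 0.13). Of the 4 other HERC ligases none was called, and Herc3 stood at 0.03 on the log2 scale (SE 0.16). At an unadjusted p under 0.05, 0 of these E1, E2 and HERC relatives passed in edgeR's quasi-likelihood test, and the Wald test of DESeq2 also called 0.

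Of 45 other tested (50 counted) ubiquitin-specific proteases, 1 was called, Usp42, a deubiquitinase. It had 18.6 to 19.2 CPM in control and 28.5 to 70.6 CPM in PFSUV-IMQ tumors, and was higher by 1.33 log2 units (SE 0.25, quasi-likelihood adjusted p = 0.0230). With 1 tumor left out, it was not called in 6 of 8 fits, with any 1 of the control replicates or with PFSUV-IMQ replicate 3 or 4 left out (adjusted p = 0.0533 to 0.0825). The other 44 had log2 fold changes of at most 1.16 in size. Usp18 stood at 4.82 in the same family. Of 19 other ubiquitin-like modifiers none was called, with a median log2 fold change of -0.07 and 1 at an unadjusted p under 0.05. That one was Ubd (FAT10, a cytokine-induced modifier), at 7.47 to 22.4 CPM in control and 23.0 to 105 CPM in PFSUV-IMQ tumors, a fitted fold of 4.01 (log2 SE 0.55, quasi-likelihood adjusted p = 0.109). DESeq2's Wald test did call Ubd (adjusted p = 0.00372), as did edgeR's exact test and the fit without a filter on low counts. A quasi-likelihood fit with a replicate block, which rests on the tumors numbered 1, 3 and 4, also called Ubd (adjusted p = 0.0436). No fit that left out 1 tumor called it (quasi-likelihood adjusted p = 0.0805 to 0.269). The ubiquitin gene Ubb had 703 ± 65.5 and 721 ± 116 CPM (SD, n = 4 each). Of 14 deconjugases of other modifiers none was called in either tool and none had an unadjusted p under 0.05. The smallest p was that of Atg4d, which trims autophagy modifiers, at 0.39 on the log2 scale (SE 0.21).

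**Figure D5:**
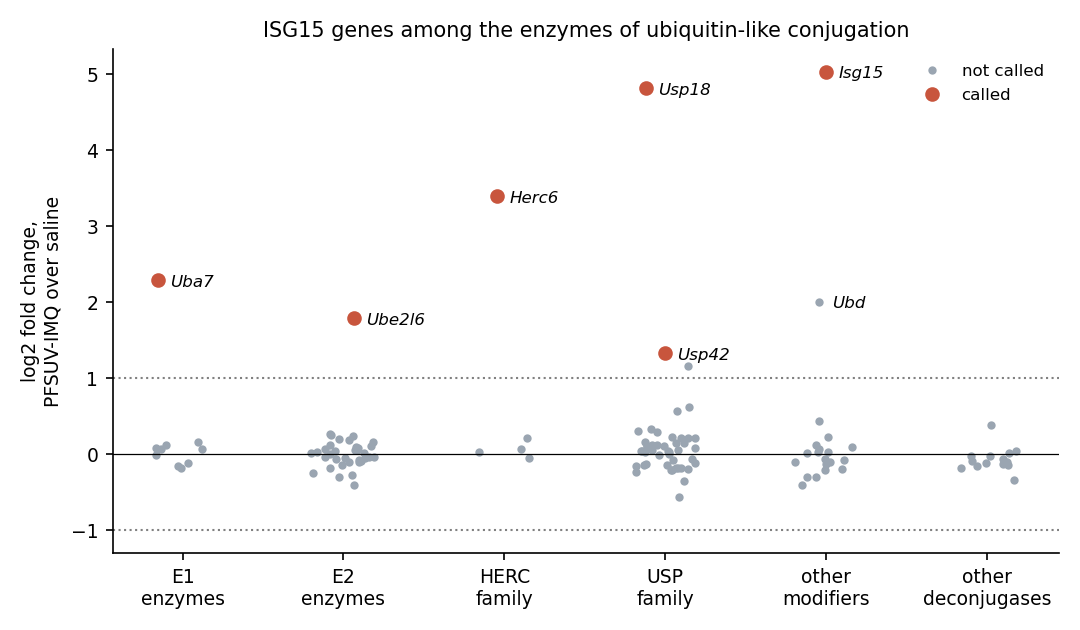
Log2 fold change of PFSUV-IMQ over saline for tested genes of 6 groups of ubiquitin-like conjugation, with called genes in red and named, the others in grey, and dotted lines at -1 and 1. Isg15 (5.03) is drawn in the column of other modifiers for comparison, and apart from the 5 ISG15 genes Usp42 is the only red point.

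Beyond the 5 core genes, 14 genes were listed as further parts of the ISG15 system: proposed alternative ligases, proteases that can also act on ISG15, and partners of free ISG15 and of Usp18. Of these, 2 were called higher, beside 2.26% of all tested genes, and the median log2 fold change was 0.02. Trim25, reported as an ISG15 ligase and best known for acting on RIG-I, rose from 79.7 ± 10.4 to 404 ± 71.3 CPM (SD, n = 4 each), or by 2.34 log2 units (SE 0.19, quasi-likelihood adjusted p = 5.5e-04). Stat2, to which Usp18 binds at the interferon receptor, rose from 102 ± 11.9 to 517 ± 81.3 CPM (SD, n = 4 each), also by 2.34 log2 units (SE 0.19, quasi-likelihood adjusted p = 5.0e-04). In both, every PFSUV-IMQ tumor lay above every control tumor, as in 6.00% of all tested genes. The other 12, among them the alternative ligase Arih1, the proteases Usp5, Usp14 and Usp21, and Ifnar2, all lay within 0.5 of 0.

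Of 15 genes whose proteins are reported to be modified by ISG15, 6 were called higher and 0 lower. Among all tested genes the shares were 2.26% higher and 0.200% lower. All 6 are known as interferon-induced. The 4 with the largest log2 fold changes were Mx1 (6.26) and Ifit1 (6.05), which are antiviral effectors, and Ifih1 (3.38) and Ddx58 (2.59), which are RNA sensors. The list had a median log2 fold change of 0.25. The number called higher depended on the fit, with 7 by DESeq2's Wald test and 5 without control replicate 1.

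The genes most like each of the 5 across the 8 tumors were found by a root mean square difference, over 15997 other tested genes. It was taken on the log2 of normalized CPM plus 0.5, with each gene centered on its control mean. The gene nearest to Isg15 was Usp18, and the gene nearest to Usp18 was Isg15, at 0.24 log2 units, with the antiviral GTPase gene Mx2 second for both (0.27 and 0.29). Next came Ifit3 for Isg15 (0.36) and Ifit2 for Usp18 (0.46). Herc6 was nearest to Ifi44 (0.17), Ddx60 (0.23) and Slfn5 (0.26), Uba7 to Trafd1 (0.16), B430306N03Rik (0.19) and Hsh2d (0.20), and Ube2l6 to Sp110 (0.14), Slfn10-ps (0.17) and Mitd1 (0.20). The measure takes in both the size of the change and the order of tumors. That all of these neighbors were called higher is therefore largely built into it. The added 0.5 also draws in genes of low CPM. Hsh2d, at a mean of 1.28 CPM in control tumors, had a fitted log2 fold change of 2.74, beside 2.29 for Uba7. As points share the same 8 libraries, the measure is given as a description.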

How the data were processed

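For each of the 8 tumors the authors deposited unnormalized gene counts, which all tests here started from. Their normalized table, of deposited signal values, holds these counts divided by 1 size factor per tumor (largest relative departure 5.4e-10), and was used only for gene symbols. The submitters' processing notes list Trimmomatic 0.38, HISAT2 2.1.0 and featureCounts 2.0.0, whereas the study's methods name TopHat and HTSeq, and the strand setting and build are not given in the sources used here. All 55536 identifiers are in GENCODE M21 (GRCm38), from which coordinates and exon lengths were taken. Between 3.96% (Isg15) and 23.8% (Herc6, with Gm45193) of the 50-base stretches of a member also occur in transcripts of another gene.

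Differential expression was fitted with edgeR 4.0.16 in R 4.3.3 (TMM, default filter on low counts, quasi-likelihood test, Benjamini-Hochberg adjustment over 15998 genes) and DESeq2 1.42.0, and permutation tests in scipy 1.17.1. Ratios of 2 genes and the measure of likeness between genes used normalized CPM plus 0.5. On simulated counts of 15998 genes for this comparison, 43 of 50 genes changed by 2 log2 units and all 50 changed by 4 were called, with 3 of 15798 unchanged genes called. The simulation drew each gene on its own, with changes up or down at random. Deviations that a tumor shares across genes, as in PFSUV-IMQ replicate 2, were not simulated, so these rates may not hold for the real tumors. Counts of every within-group pair of tumors differed by more than sampling noise (chi-square per degree of freedom 26.0 to 258). The members and gene lists were chosen with earlier results of these data known. The genes named are the 5 members, up to 4 called genes of each list or otherwise the one with the smallest p, the 3 nearest genes to each member and the closest relatives by name. Usp25, Ubb, the unchanged genes of the wider system and genes at the ends of a range were named after their values were seen. The list of interferon signal transducers is not reported here. RefSeq promoter windows on GRCm38.p6 were matched for 4 of the 5 genes (Isg15, Uba7, Ube2l6 and Herc6).

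Alternatives were DESeq2 size factors or upper-quartile scaling, other low-count filters (none, or a minimum of 10 counts per tumor), edgeR's exact test, edgeR's glmTreat, DESeq2's Wald test, dropping the fold limit, a replicate block, other pseudocounts, the longest transcript as gene length, and each tumor left out in turn.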

Additional observations from a re-analysis of the deposited data

Results flagged for a closer look

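One value stood apart from the others of its group. The log2 ratio of Isg15 to Uba7 was 1.09 in PFSUV-IMQ replicate 1 and 1.67 to 1.76 in the other 3 PFSUV-IMQ tumors, a gap beyond Dixon's 95% limit for 4 values. It was 1 of 30 sets of 4 tumors looked at (levels and ratios in each group), and chance sets off this limit in about 1 of 20 sets. Without that tumor the shift of this ratio was 2.84 in place of 2.68.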

How the results depend on the processing

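All 5 genes kept their direction in the 17 alternatives, and 84 of 85 values kept their call, the exception being Ube2l6 with glmTreat. Log2 fold changes ranged from 4.67 to 5.23 for Isg15, 1.97 to 2.42 for Uba7, 1.49 to 1.98 for Ube2l6, 2.75 to 3.63 for Herc6 and 4.35 to 5.03 for Usp18. The number of genes called over the whole table depended more on the processing. Against 362 higher and 32 lower, DESeq2's Wald test gave 572 and 114, the exact test 541 and 92, glmTreat 119 and 1, and no filter on low counts 491 and 63, and the cause was not tested. With 1 tumor left out, 197 to 375 genes were called higher and 8 to 38 lower, with 16 lower without control replicate 1, 13 without control replicate 3, 15 without control replicate 4, 10 without PFSUV-IMQ replicate 3 and 8 without PFSUV-IMQ replicate 4. A replicate block gave 416 higher and 267 lower and called all 5 genes. Control replicate 5 and PFSUV-IMQ replicate 2 share their number with no other tumor, so the group effect in that fit rests on numbers 1, 3 and 4. Deviations of tumors that share a number had correlations of 0.29, -0.27 and -0.32 for numbers 1, 3 and 4. Tumors with different numbers had correlations of -0.64 to 0.68, so these values cannot decide whether the numbers pair the tumors. All 10 pair shifts kept their sign with 1 tumor left out, where the design is too small for a p under 0.05, and all 7 that passed also did with a pseudocount of 2 and with raw counts. Usp25 (log2 fold change 1.16) was called by DESeq2, by the exact test and without the filter, and under no other alternative.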

Other observations

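The genes of type I and III interferons were barely counted in the tumors. Of 21 interferon genes in the count table, 8 had no count in any tumor, and only Ifng had enough counts to be tested, at 0.62 on the log2 scale (SE 0.42, edgeR quasi-likelihood adjusted p = 0.629). Ifnb1, the early type I interferon, had 2, 4, 0 and 2 counts in control replicates 1, 3, 4 and 5 and 4, 7, 3 and 3 counts in PFSUV-IMQ replicates 1, 2, 3 and 4. Ifnl2, a type III interferon, had 0 counts in all control tumors and 3, 6, 1 and 0 counts in the PFSUV-IMQ tumors. Scaled to library size, a step added after seeing the data, Ifnb1 was at 0 to 0.141 CPM in control and 0.165 to 0.489 CPM in PFSUV-IMQ tumors, so the groups did not overlap (exact two-sided permutation p = 0.0286, the smallest possible, adjusted p = 0.343 over the 12 type I and III genes with a count). Of these 12 it was the only one without overlap, and Ifnl2 had an exact permutation p of 0.143 (adjusted p = 0.857). Summed over the 20 type I and III genes, control tumors held 4 to 10 counts and PFSUV-IMQ tumors, with smaller libraries on this scale, 8 to 18, which is 0.172 to 0.3801 CPM against 0.446 to 1.258 CPM, again without overlap (exact permutation p = 0.0286). These values rest on at most 7 counts per gene and tumor, and the Ifna genes are near-identical copies whose counts are uncertain.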
